A study of Bos taurus with 8 samples.

Results

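The genes described here build fatty acids and put double bonds into them. The list holds 10 genes: THRSP, FASN, ACACA, ACLY, SCD, ELOVL6, SREBF1, ME1, FADS1 and FADS2. They were looked for on a bovine expression array through the RefSeq accession of each probe, and LN and HN fetal liver were compared over all probes of each gene. Probes were matched for 8 of the 10 genes, 28 probes in all, of 12603 genes with a matched probe. FASN and FADS1, with 0 matched probes, were not analysed here. All 28 probes were detected, that is, 4 or more of the 8 arrays read them well above background, so 8 of the 10860 genes with a detected probe belong to the list.

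In lipogenesis, citrate leaves the mitochondrion and is split in the cytosol to acetyl-CoA, which is carboxylated to malonyl-CoA and joined into palmitate by fatty acid synthase at the expense of NADPH. Palmitate is then elongated, and desaturases of the endoplasmic reticulum turn saturated into monounsaturated fatty acids or insert further double bonds into polyunsaturated ones. In liver these genes are known as targets of SREBP-1c, the insulin-responsive product of SREBF1, and of the carbohydrate-responsive factor ChREBP. In ruminants adipose tissue, more than liver, is known as the main site of fatty acid synthesis.

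Liver was taken from Japanese Black fetuses at 8.5 months after conception, 1 fetus per array by the sample labels. The dams of the 4 LN fetuses (L5, L6, L8 and L9) were fed 60% of their nutritional requirement through gestation, and those of the 4 HN fetuses (L1, L2, L3 and L10) 120%. There was no group fed at requirement, and the study's methods say that fetuses of the lowest body weight were picked from LN and those of the highest from HN, so the groups differ in body weight by selection as well as by diet. A text on the whole series speaks of RNA pooled per group, and here each array counts as a single fetus. The 4 LN arrays lay on one slide and the 4 HN arrays on another, in separate scans, and slide and diet cannot be told apart. In both groups 8 of 8 hepatocyte markers were detected, with a summed log2 signal of 20.93 to 20.99 in LN and 20.88 to 20.97 in HN.

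FADS2 is the only gene of the list for which a sequence could be shown, a pair of primers that the study used for PCR on these livers. They are given 5′ to 3′, and their transcript, NM_001083444, is the accession of the array probe too. The FADS2 values below are array signals and were not read with these primers.
FADS2 forward primer: gagattcagaagcacaacctgc
FADS2 reverse primer: attaacaggggcttcatgaacttg

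The list did not move one way. By the brightest probe of each gene, 5 of the 8 genes were lower in LN and 3 higher. The median of their log2 differences was -0.072, beside 48.4% of all genes lower and a median of 0.0075. A difference of more than 1.25-fold was seen for 3 genes, with THRSP and FADS2 lower and SCD higher in LN, beside 16.4% of all 10860 genes (8.63% lower and 7.82% higher). The other 5 genes differed by between -0.14 and 0.097. THRSP was the 1 gene of the 8 whose LN and HN fetuses did not overlap, beside 4.14% of all genes. The genes were chosen with the LN and HN values of these arrays known, so these numbers are a description and were not tested. Signals of different probes are not compared, since each probe has its own brightness.

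**Figure D1:**
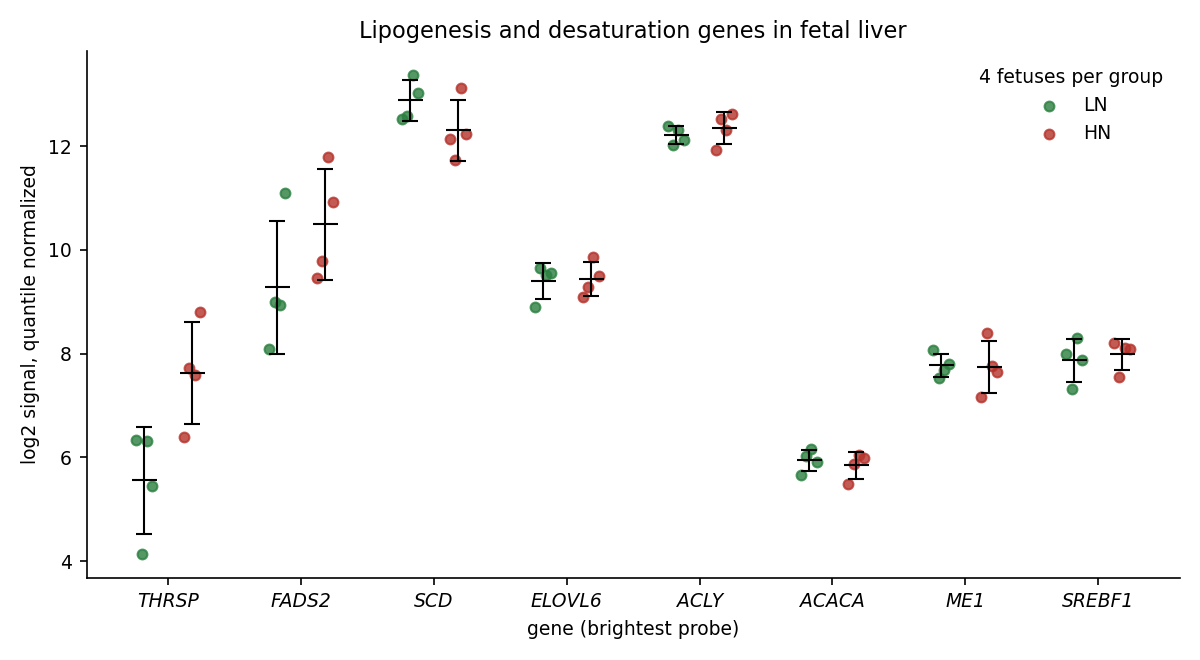
Quantile-normalized log2 signal (vertical axis) of the brightest probe of the 8 measured genes, with 1 point per fetus (green LN, red HN, 4 each) and bars for the mean ± SD. THRSP is the gene without overlap, with LN at 4.14 to 6.32 and HN at 6.39 to 8.80.

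Of the regulators, THRSP (NM_001040533) encodes the nuclear protein Spot 14, known from liver and adipose tissue as a thyroid hormone- and carbohydrate-responsive partner of lipogenesis. Its log2 signal was 6.32 in L5, 4.14 in L6, 6.32 in L8 and 5.44 in L9, against 6.39 in L1, 7.73 in L2, 7.58 in L3 and 8.80 in L10. The lowest HN fetus, L1, lay just above the LN fetuses L5 and L8. The mean was 5.55 ± 1.03 in LN and 7.62 ± 0.99 in HN (SD, n = 4 each), a log2 difference of -2.07 (standard error 0.60), or 4.19-fold higher in HN.

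The size of the THRSP difference depended on the probe. The probe above has the highest mean over all 8 fetuses through its HN values, since in LN another THRSP probe was brighter (6.20 against 5.55), so the choice of probe is not independent of the difference. The other 3 probes of the gene differed by -0.35, -0.27 and -0.59 (standard errors 0.48, 0.35 and 0.39), and the groups overlapped on each. The probes gave the same outer HN fetuses, with L10 highest and L1 lowest on all 4. Within LN they disagreed. L5 and L8 were the highest LN fetuses on the brightest probe and the lowest on the other 3 probes, where L9 was highest. As a mean over the 4 probes the difference was -0.82 and the groups overlapped. With normexp background correction the brightest probe differed by -1.28, and with 1 fetus left out at a time by -2.48 (without L1) to -1.60 (without L6).

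SREBF1 (NM_001113302), the gene of SREBP-1, did not show a difference beyond its spread. It measured 7.99 in L5, 7.31 in L6, 8.31 in L8 and 7.88 in L9, and 8.20 in L1, 7.55 in L2, 8.11 in L3 and 8.09 in L10. One fetus of each group, L6 and L2, lay below all others. The difference was -0.12 (standard error 0.23), -0.26 without L2 and 0.071 without L6, and the dimmer probe of the gene differed by -0.32 (standard error 0.32).

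The next 3 genes supply and start the chain. ACLY (NM_001037457), ATP citrate lyase, which makes cytosolic acetyl-CoA, was 12.39 in L5, 12.02 in L6, 12.31 in L8 and 12.13 in L9, and 11.93 in L1, 12.53 in L2, 12.31 in L3 and 12.63 in L10. The LN fetuses lay inside the range of the HN fetuses, of which L1 was the lowest and L10 the highest. All 4 ACLY probes were lower in LN, by -0.28 to -0.089, and the brightest by -0.14 (standard error 0.17). The difference was -0.042 without L10 and -0.28 without L1.

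ACACA (NM_174224), acetyl-CoA carboxylase alpha, which makes malonyl-CoA, was 5.67, 6.02, 6.16 and 5.92 in L5, L6, L8 and L9 and 5.48, 5.87, 6.05 and 5.98 in L1, L2, L3 and L10. The groups overlapped, with a difference of 0.097 (standard error 0.17) that turned to -0.051 when arrays were scaled to their 75th percentile and to -0.026 without L1. A dimmer ACACA probe behaved differently from the other 2. It was 3.55, 3.104, 3.75 and 3.40 in L5, L6, L8 and L9, and 4.18, 4.09, 3.78 and 3.94 in L1, L2, L3 and L10. Every LN fetus was lower than every HN fetus there, with a difference of -0.55 (standard error 0.16), but the probe was well above background on 3 of the 4 LN arrays. Within groups the correlation between ACACA probes had a median r of -0.32.

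ME1 (NM_001144853), the cytosolic malic enzyme and a source of NADPH, was 8.07, 7.52, 7.69 and 7.80 in L5, L6, L8 and L9, and 7.17, 8.40, 7.76 and 7.64 in L1, L2, L3 and L10. HN held both the lowest and the highest fetus, and the SD was 0.23 in LN and 0.51 in HN. The difference was 0.028 (standard error 0.25). It was -0.032 with scaling to the 75th percentile, and -0.16, -0.072 and -0.0064 without L1, L5 and L10.

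Among the genes that reshape the product, ELOVL6, SCD and FADS2 went different ways. ELOVL6 (NM_001102155), which elongates palmitate, was 8.89 in L5, 9.65 in L6, 9.52 in L8 and 9.55 in L9, against 9.09 in L1, 9.28 in L2, 9.85 in L3 and 9.50 in L10. On this probe L5 stood below the 3 other LN fetuses, which lay within the HN range, while on the other 4 probes L6 was the lowest LN fetus. The brightest probe differed by -0.028 (standard error 0.22), turned to 0.0099 with normexp, to 0.14 without L5 and to 0.11 without L3, and the other 4 probes were higher in LN, by up to 0.26.

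SCD (NM_173959), stearoyl-CoA desaturase, makes oleate and palmitoleate. Its log2 signal was 12.53 in L5, 12.58 in L6, 13.38 in L8 and 13.04 in L9, and 12.14 in L1, 11.73 in L2, 13.12 in L3 and 12.23 in L10. HN fetus L3 lay among the LN fetuses, and the other 3 HN fetuses lay below all of LN. The mean was 12.88 ± 0.40 in LN and 12.31 ± 0.58 in HN (SD, n = 4 each), a difference of 0.58 (standard error 0.31), or 1.49-fold higher in LN.

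SCD was the member with the most probes, and they agreed. All 7 were higher in LN, by 0.30 to 0.58, and their deviations within groups correlated with a median r of 0.95 and a lowest r of 0.82. Leaving out 1 fetus at a time gave 0.39 (without L2) to 0.85 (without L3) on the brightest probe. Since the 7 probes read the same RNA of the same fetuses, they are not independent measurements of the diet groups.

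FADS2 (NM_001083444) encodes the delta-6 desaturase, the entry step of polyunsaturated fatty acid synthesis. Its single probe gave 8.10 in L5, 8.99 in L6, 8.93 in L8 and 11.10 in L9, and 9.46 in L1, 9.78 in L2, 11.80 in L3 and 10.92 in L10. L9 was higher than 3 of the HN fetuses, while the 3 other LN fetuses lay below all of HN. The mean was 9.28 ± 1.28 in LN and 10.49 ± 1.07 in HN (SD, n = 4 each), a log2 difference of -1.21, or 2.31-fold higher in HN. The standard error was 0.70. Without L9 the difference was -1.82 and without L3 it was -0.77. No other probe was matched to FADS2, so the array value has no check by a second probe. By PCR the paper reports FADS2 lower in LN, in a test whose direction was taken from the arrays. Its PCR fetuses include those of the arrays, so they are not independent of them.

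**Figure D2:**
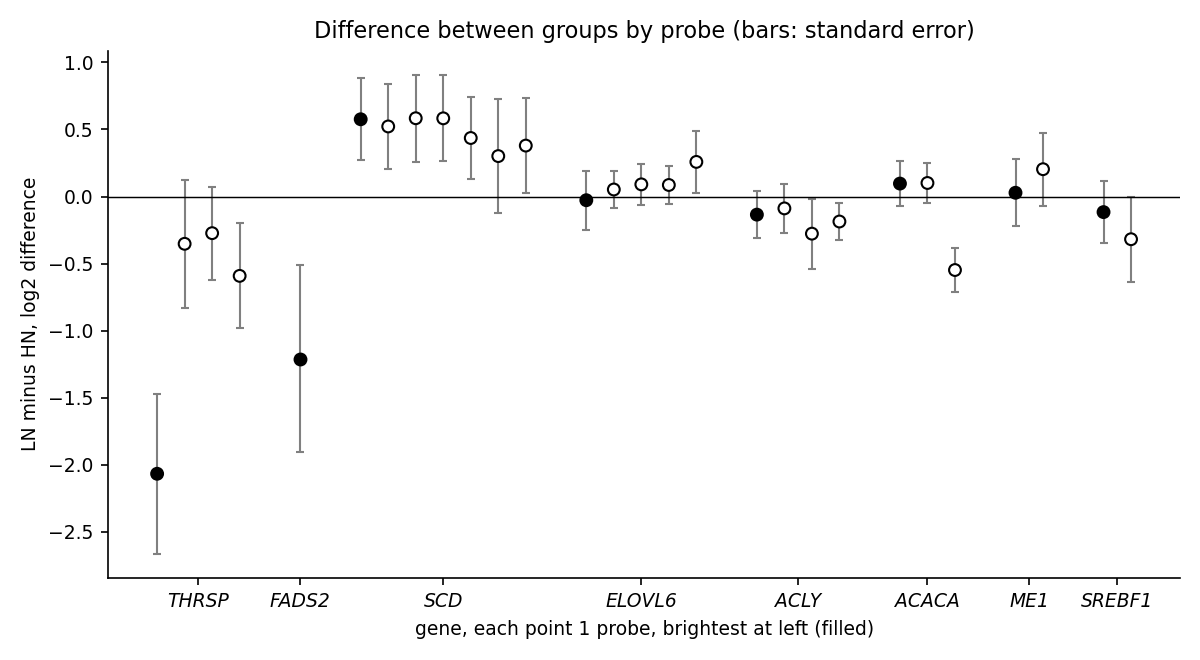
Log2 difference LN minus HN (vertical axis) for each of the 28 probes, grouped by gene (horizontal axis), with standard errors as bars and the brightest probe of a gene filled. The 7 SCD probes lie between 0.30 and 0.58, while the brightest THRSP probe, at -2.07, stands apart from its other 3 at -0.59 to -0.27.

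The spread between fetuses of one group differed from gene to gene. THRSP and FADS2 had the widest within-group SD of the 8, at percentiles 98.1 and 98.9 of 10860 genes, followed by SCD at 87.9. ME1, SREBF1 and ELOVL6 were at percentiles 79.7, 75.7 and 72.4, while ACLY and ACACA, at 55.0 and 50.5, varied about as much as the median gene. This variation does not use the difference between groups, and it was followed from gene to gene as deviations of each fetus from its group mean. HN fetus L1 lay above its group mean for 1 of the 8 genes, LN fetus L6 for 2, and L8, L3 and L10 for 6 each. The remaining fetuses lay above it for 4 or 5.

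No relation of SREBF1 with the other members passed the test. Its deviations correlated most closely with those of SCD (r = 0.60, exact permutation p = 0.137, Spearman's rho = 0.55, exact permutation p = 0.205), and r was 0.29 without L6 and L2. With THRSP r was 0.47, with FADS2 0.073, with ACLY 0.042, with ACACA -0.057, with ELOVL6 -0.13 and with ME1 -0.33. Of these 7 relations 0 passed after adjustment in the exact 2-sided test, which permuted fetuses within groups in every way (lowest adjusted p = 0.847), and 0 had an unadjusted exact p of 0.05. With 8 fetuses only a close relation can pass.

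The closest pair was THRSP and ACLY. Fetuses with high THRSP for their group had high ACLY, with r = 0.90 (exact permutation p = 0.00174, the smallest that these permutations give, adjusted p = 0.0486 over 28 pairs) and rho = 0.95 (exact permutation p = 0.00347, adjusted p = 0.0972). Without L6 and L1, the fetuses farthest from the middle in THRSP, r was 0.80, and with 1 fetus left out at a time it was 0.86 to 0.94. The r depended on the THRSP probe. It was 0.30 to 0.52 for the other 3 probes of THRSP and 0.85 when the probes of each gene were averaged. The single-probe values all used the brightest ACLY probe. The 4 ACLY probes correlated within groups with a median r of 0.37 and a lowest of 0.25. THRSP was not set against the other ACLY probes one by one, so the r of 0.90 holds for the brightest probe of each gene.

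Of the 28 pairs, 19 had a positive r, with a median of 0.18, where the median over all pairs of genes was 0.00066. An r over 0.7 was seen for 4 pairs (14.3%, beside 6.23% of all pairs of genes). Besides THRSP with ACLY these were ACACA with ELOVL6 (r = 0.85, exact permutation p = 0.0139, adjusted p = 0.194, rho = 0.64, adjusted p = 0.817), ELOVL6 with FADS2 (r = 0.75, exact permutation p = 0.0642, adjusted p = 0.556, rho = 0.83, adjusted p = 0.292) and ACLY with ME1 (r = 0.71, exact permutation p = 0.139, adjusted p = 0.556, rho = 0.52, adjusted p = 0.897). Without L1 and L5 the r of ACACA with ELOVL6 was 0.45, so it rests on those fetuses. These r also depended on the probe. Over the 15 pairs of ACACA and ELOVL6 probes r ran from -0.60 to 0.85 (median 0.23), over the 5 of ELOVL6 with FADS2 from -0.40 to 0.75 (median 0.31), and over the 8 of ACLY with ME1 from -0.17 to 0.73 (median 0.44).

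The cholesterol synthesis genes, which depend largely on SREBP-2, gave a second reference for this variation. Of 18 such genes 18 were detected. All 18 had the lower mean in LN (median of the log2 differences -0.28), beside 48.4% of all genes. But LN and HN fetuses overlapped in each and 0 had an unadjusted limma p of 0.05. Within groups their mean deviation was highest in L10, where 18 of 18 lay above the group mean, and low in L1 and L3, where 0 of 18 did. ACLY followed this mean with r = 0.90 (exact permutation p = 0.0208, adjusted p = 0.0833 over 8 relations; rho = 0.83, exact permutation p = 0.0278, adjusted p = 0.111). THRSP followed it with r = 0.84 (exact permutation p = 0.0139, adjusted p = 0.0833; rho = 0.81, exact permutation p = 0.0260, adjusted p = 0.111). Without L10 and L1 these r were 0.87 and 0.68. For SCD, ELOVL6 and FADS2 r was -0.23, -0.20 and -0.25, and without L10 and L1 it was -0.39, -0.73 and -0.81. After adjustment 0 of the 8 relations passed 0.05.

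**Figure D3:**
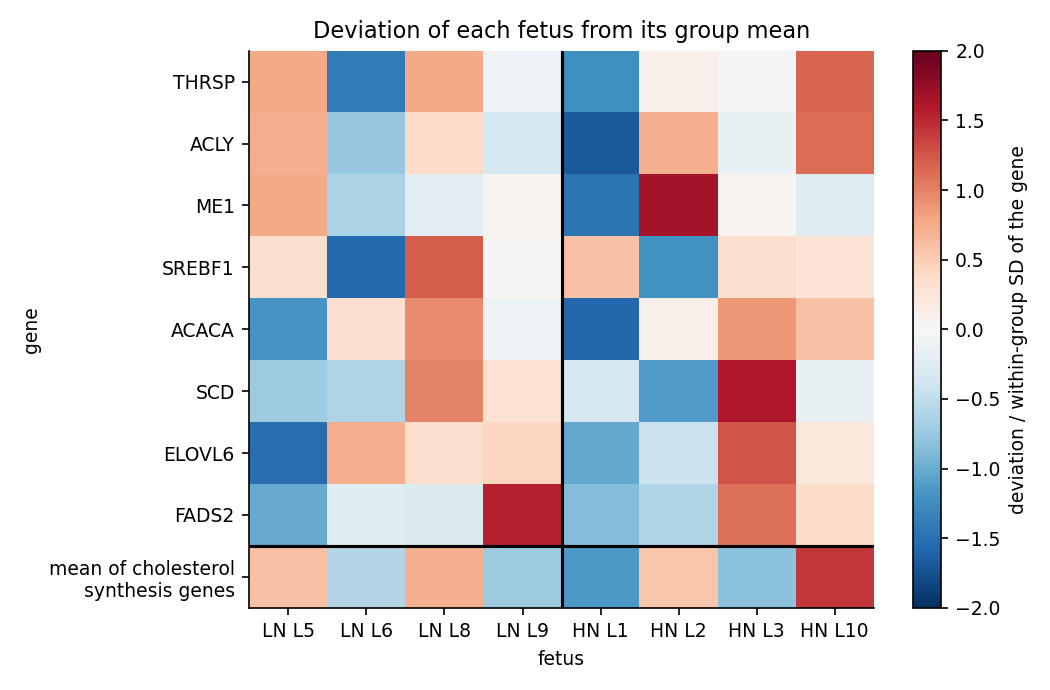
Deviation of each fetus (horizontal axis, LN left and HN right of the line) from its group mean, in within-group SDs, for the 8 genes and, below, the mean of 18 cholesterol synthesis genes. Red is above and blue below the group mean. THRSP and ACLY share their pattern on their brightest probes (r = 0.90), with L10 high and L1 and L6 low. Within HN, SCD, ELOVL6 and FADS2 are highest in L3.

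Other genes of lipid synthesis were read from 6 lists. Of 85 listed genes 74 had a matched probe and 73 a detected one. Of these, 51 were lower and 22 higher in LN, beside 48.4% of all genes lower. The median of the log2 differences was -0.075. By limma 0 of the 73 passed a threshold of 0.05 after adjustment (lowest adjusted p = 0.734), and so did 0 of 33439 probes over the whole array (0% of probes). At an unadjusted limma p of 0.05 the number was 5 of 73, or 6.85%, against 6.05% of all genes, a share near the background. The groups did not overlap in 5 of 73 (6.85%), beside 4.14% of all genes. Genes named below were mostly picked by that unadjusted p or by size in these same fetuses. Their exact permutation p values are therefore a description. Without HN fetus L10, 41 of the 73 were lower, with a median of -0.034, beside 47.8% of all genes lower.

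The largest of these differences was that of MID1IP1, which encodes a paralogue and partner of Spot 14 that is known to activate acetyl-CoA carboxylase. Its log2 signal was 12.80 in L5, 12.14 in L6, 12.41 in L8 and 11.87 in L9, against 11.12 in L1, 10.96 in L2, 11.79 in L3 and 10.73 in L10. Every LN fetus was above every HN fetus, though L9 and L3 lay close together. The difference was 1.15 (standard error 0.27), or 2.22-fold higher in LN, with an exact permutation p of 0.0286, the smallest that 4 against 4 fetuses allow, and an adjusted limma p of 0.734. All 3 probes were higher in LN, by 1.15, 1.12 and 0.89, and the groups overlapped on the second of them, where L9 lay below L3 (exact permutation p = 0.0571). With 1 fetus left out at a time the brightest stayed between 0.98 and 1.36. In the same 8 fetuses THRSP and MID1IP1 thus differed in opposite directions.

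**Figure D4:**
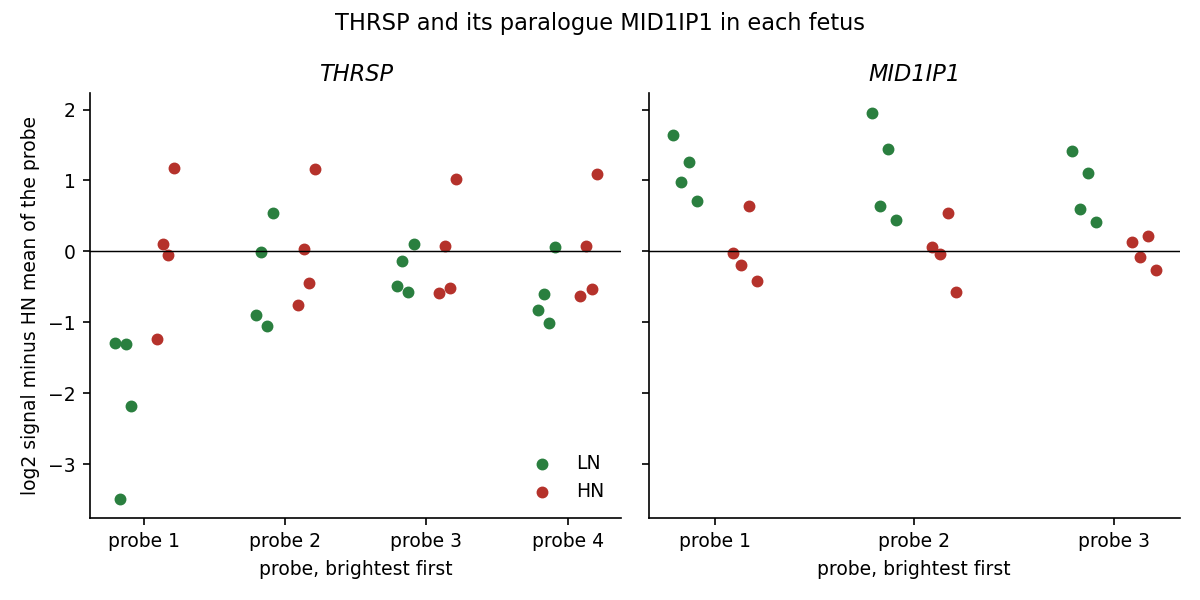
Log2 signal of each fetus minus the HN mean of the probe (vertical axis), for the 4 probes of THRSP (left) and the 3 of MID1IP1 (right), green for LN and red for HN. The MID1IP1 probes differ by 0.89 to 1.15, and the THRSP probes by -2.07 to -0.27 with overlap on all but the brightest.

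The rest of the fatty acid synthesis list, which holds ACACB, the AMP-activated kinase subunits and mitochondrial synthesis enzymes, split 4 lower and 4 higher with MID1IP1 included. PPARGC1A, a coactivator, differed by -0.40 (standard error 0.22), and by -0.23 without L1. Its size depended on the probe, at -0.52 without overlap on one dimmer probe and -0.093 with overlap on another. Of 12 regulators of lipogenic transcription 9 were lower and 3 higher, beside 48.4% of all genes lower, and 0 had an unadjusted limma p of 0.05. MLXIPL, the gene of ChREBP, differed by -0.074 (standard error 0.26), and SREBF2, the gene of SREBP-2, by 0.026 (standard error 0.12). PPARG, the adipogenic receptor, differed by 0.37 (standard error 0.29, exact permutation p = 0.314), and by 0.12 without L2.

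Suppliers of acetyl-CoA and NADPH, the neighbours of ACLY and ME1, were lower in 7 of 9 cases, beside 48.4% of all genes. Their median was -0.25, and 0 had an unadjusted limma p of 0.05. The median of this list was not recomputed with fetuses left out. ACSS2, which makes acetyl-CoA from acetate, the main lipogenic substrate of ruminants, differed by -0.41 (standard error 0.37) and by -0.060 without L10. IDH1, a cytosolic source of NADPH, differed by -0.36 (standard error 0.18, exact permutation p = 0.171). The groups overlapped in both genes.

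Of the other elongation and desaturation proteins 10 were lower and 6 higher, with a median of -0.037. ELOVL7, an elongase of saturated fatty acids, was 11.36, 10.65, 11.54 and 10.67 in L5, L6, L8 and L9 and 11.71, 11.64, 11.83 and 11.996 in L1, L2, L3 and L10. On this probe all LN fetuses lay below the HN fetuses, by -0.74 (standard error 0.22, exact permutation p = 0.0286, adjusted limma p = 0.760), and the other 2 probes differed by -1.10 and -0.66. The last of these overlapped, with L8 above L2. ELOVL2, which elongates polyunsaturated fatty acids, differed by -0.79 (standard error 0.42, exact permutation p = 0.171), and by -0.44 with normexp. SCD5, a second stearoyl-CoA desaturase, had a difference of 0.34 (standard error 0.14, exact permutation p = 0.0571, adjusted limma p = 0.785), and of 0.33 on its other probe, the same side as SCD. SCD5 overlapped between groups, with L2 above the LN fetus L8.

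Downstream of synthesis, 16 of 18 genes of triglyceride assembly and lipid droplets were lower in LN, beside 48.4% of all genes. Their median was -0.14, and it was not recomputed with fetuses left out. An unadjusted limma p of 0.05 was reached by 2 of the 18 (11.1%, beside 6.05% of all genes), and 0 passed after adjustment. PLIN3, a lipid droplet coat protein, measured 10.001, 10.18, 10.21 and 10.19 in L5, L6, L8 and L9 and 10.39, 10.43, 10.57 and 10.86 in L1, L2, L3 and L10, and did not overlap. It differed by -0.42 (standard error 0.14, exact permutation p = 0.0286, adjusted limma p = 0.760), and by -0.74 on its other probe. AGPAT2, which makes phosphatidic acid, differed by -0.57 (standard error 0.21, exact permutation p = 0.0857, adjusted limma p = 0.760), and LPIN1, a phosphatidate phosphatase, by -0.68 (standard error 0.40), which was -0.17 with normexp and -0.32 without L1. The 10 genes of fatty acid activation and uptake split 5 and 5. The largest there was FABP1, the liver fatty acid-binding protein, at -0.56 (standard error 0.36), and at -0.17 without L6.

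**Figure D5:**
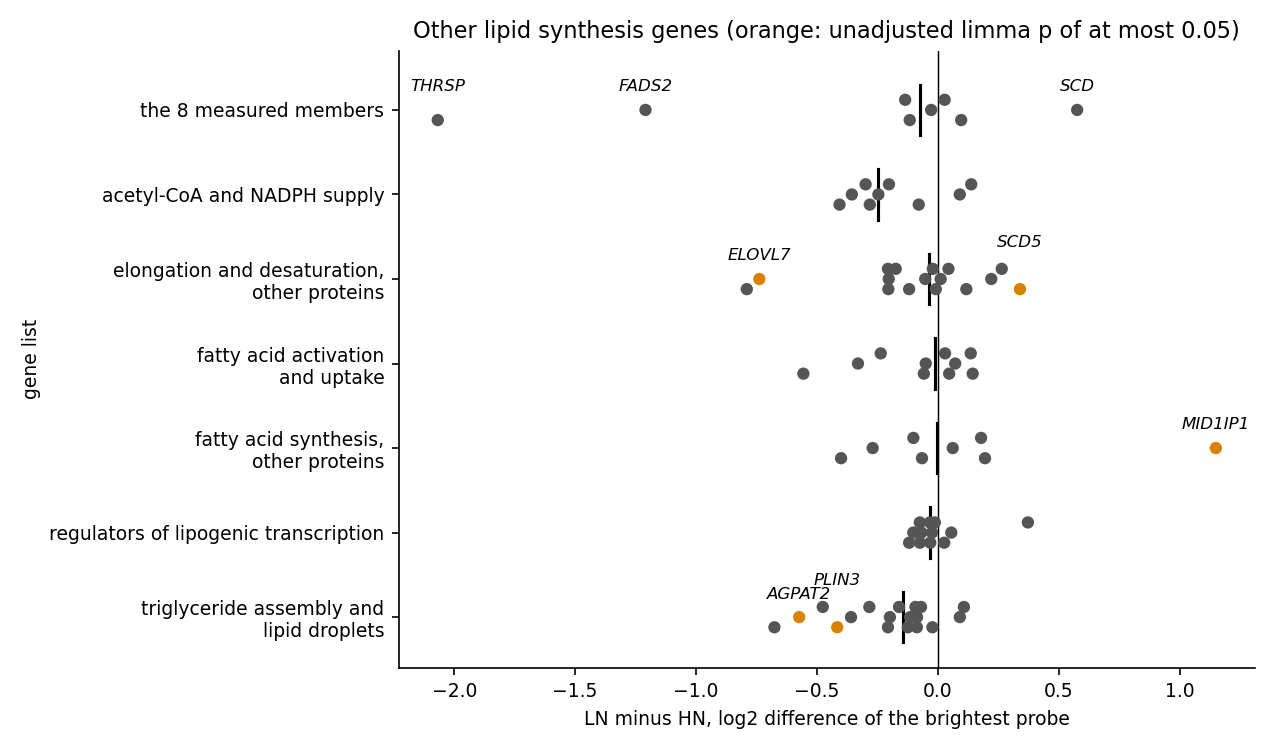
Log2 difference LN minus HN (horizontal axis) of the brightest probe of each gene, in rows for the 8 measured members and the 6 lists of other lipid synthesis genes, with 1 point per gene and a bar at the median of each row. Orange marks genes at an unadjusted limma p of 0.05 or lower, and the members were not tested. MID1IP1 stands at 1.15, opposite THRSP at -2.07.

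Several of these genes are known to be active in fat, and markers of fat and blood cells were read beside them. Fewer cells of a type and less RNA per cell cannot be told apart in whole liver. Of 6 adipocyte markers 3 were detected (CIDEA, PLIN1 and FABP4), LEP and LIPE were not, and ADIPOQ had 0 matched probes. Their summed log2 signal was 10.59 to 11.19 in LN and 10.93 to 11.70 in HN, highest in L10 and lowest in L6. This sum is almost all CIDEA, which differed by -0.32. PLIN1 was higher in LN, by 0.39, and highest in L6. FABP4 was well above background on 3 LN and 2 HN arrays, and no difference is given for it. Of 10 erythroid markers 8 were detected. The mean of all 8 was higher in LN, but GATA1 was well above background on as few arrays as FABP4, the groups overlapped in all 8, and 0 had an unadjusted limma p of 0.05. Their sums were 14.87 to 18.20 in LN (L5 highest) and 13.47 to 16.22 in HN. Of 7 neutrophil markers 6 were higher in LN, with sums of 12.71 to 14.34 in LN and 11.53 to 12.78 in HN. Of these 7, 3 (ELANE, MPO and CATHL4) did not overlap between groups and passed 0.05 by limma without adjustment, beside 4.14% and 6.05% of all genes, and 0 passed after adjustment. The part of these cells in the differences of THRSP, SCD, FADS2 and MID1IP1 was not tested.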

How the data were processed

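Arrays of 1 colour were hybridised with liver RNA from 4 LN and 4 HN fetuses. The authors deposited scanner output per array, in which each spot intensity is background-subtracted by Agilent Feature Extraction 11.0.1.1 without normalization between arrays, and a table of log2 values for 31068 probes that, per the study's methods, were quantile normalized. Columns not tied to a sample numbered 0.

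Here log2 intensities were averaged per probe without spots marked as outliers (16 probes were left out) and quantile normalized over 43637 probes. Per array, 32635 to 34369 of 43803 spots were well above background and 0 were saturated. Precision is limited by the number of arrays. Of these probes 33439 were detected, and 26740 were matched to 12603 genes through the RefSeq table of assembly ARS-UCD2.0. Since the array was designed on another build, coordinates are left out. Each gene takes the value of its brightest detected probe.

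The contrast of LN with HN was fitted by limma 3.58.1 under R 4.3.3 (2-sided, Benjamini-Hochberg over detected probes). Standard errors are limma's. Correlations used deviations from group means with exact permutations within groups. Both were tested on simulated data. Named beyond the members were pathway genes with an unadjusted limma p of at most 0.05, up to 2 further genes per list with the largest differences, and the genes most like the members. Others were named after their values were seen. The members and lists were chosen with earlier results of these data known. Alternatives were normexp background correction (offset 50), scaling to the 75th percentile, the authors' log2 table, other filters on dim probes, the mean over a gene's probes, other tests, and each fetus left out in turn.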

Additional observations from a re-analysis of the deposited data

Results flagged for a closer look

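Each group of 4 fetuses was checked for a single fetus far from the other 3, for the 8 members and 14 other named genes of lipid synthesis (MLXIPL and SREBF2 were not among them). Of 44 groups checked 2 stood out, both through LN fetus L5, and chance flags about 1 in 20 groups, or 2.2 of 44. ELOVL6 had a log2 signal of 8.89 in L5, against 9.52 to 9.65 in the other LN fetuses. This held for the brightest ELOVL6 probe, and on the other 4 probes L6 and not L5 was the lowest LN fetus. PLIN3 had a log2 signal of 10.001 in L5, against 10.18 to 10.21 in the other LN fetuses. On its other probe L5, at 5.16, was not the lowest, since L6 was at 4.52 and L9 at 4.86. L5 also had the highest summed signal of erythroid markers, at 18.20, and the part of these cells in the values of ELOVL6 and PLIN3 was not tested.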

How the results depend on the processing

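Of the values recomputed under 17 alternatives, 436 were labelled as kept and 5 were not, by a different rule for each kind of value. Counts were kept within a set fold of the main count, as 2813 probes at an unadjusted p of 0.05 with 75th percentile scaling were against 2113. Differences of the other named genes were kept by direction and side of the adjusted threshold. With a lowest adjusted limma p of 0.734 that side could hardly change, so the 436 overstates how firm the results are. Differences of the members, which were not tested, were kept when they moved by less than the spread between fetuses. Within that spread, 12 of 112 recomputed differences of the members changed sign, with values between -0.16 and 0.14. They were in ACACA (3), ELOVL6 (4), ME1 (4) and SREBF1 (1). Of 224 differences of 14 other named genes 2 changed sign, and MLXIPL and SREBF2 were not among the 14. THRSP, FADS2, SCD and ACLY changed sign in 0. The THRSP difference moved to -0.82 as a mean over its probes. NR1H2 differed by -0.12 and by 0.10 as a mean over its probes, and SLC27A2 by -0.33 and, with each fetus left out, by -0.63 (without L9) to 0.047 (without L8). With each fetus left out in turn, 0 to 1 of the detected probes passed an adjusted p of 0.05 (1 without L6), and 1343 (without L10) to 2639 (without L3) had an unadjusted p of 0.05, against 2113 with all fetuses. Between 4 and 7 of the 8 members were lower in LN under the alternatives run, the count of other lipid synthesis genes at an unadjusted p of 0.05 ran from 4 to 7 (7 with normexp, with no filter on dim probes, as a mean over probes, without L5 and by Student's test per probe, and 4 without L6 and without L10), and 0 passed after adjustment. At that unadjusted threshold AGPAT2 was lost in 4 and SCD5 in 5 of 16 alternatives, and ELOVL2 (2), IDH1, LPIN1 and PPARGC1A (1 each) were gained, all by leaving out 1 fetus. No paired analysis was possible because the fetus numbers of LN and HN differ. Slide as a block could not be fitted, since no slide held both groups. The cause of these changes was not tested.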

Other observations

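The genes outside the list whose deviations within groups were most like the mean of the 8 members over the 8 fetuses were TRAF4 (r = 0.95), PEX19 (r = 0.94), DSTN, HAUS7, BID and HESX1 (r = 0.92 each), and FABP3 and IGSF11 (r = 0.91 each). FABP3, a fatty acid-binding protein of muscle and heart, had a log2 difference (LN minus HN) of -0.14. Those most like FADS2 alone were GATAD1 and LYPD4 (r = 0.98 each), CBLIF (r = 0.96), and SLC23A3 and ZBTB5 (r = 0.95 each). They are the highest of 10860 genes over 8 fetuses that share arrays, and are given as a description.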
